A study of Mus musculus with 2 samples.

Results

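*Pax6*, *Rax*, *Six3*, *Six6*, *Lhx2*, *Otx2* and *Otx1* are 7 homeobox genes of the eye field and optic cup. They were chosen by name, and all 7 were among the 31053 genes of the count tables. Their unique molecular identifiers (UMIs, 1 per captured transcript) were counted in single eye cup cells of mouse embryos at e13.5, in cell classes named from other marker genes. The study asked what is lost in the eye when *Myrf*, which encodes a membrane-bound transcription factor, is removed. Both groups carried floxed *Myrf* on both alleles: the control was *Myrf fl/fl*, and the mutant was *Rx>cre Myrf fl/fl*, in which Cre recombinase from an *Rx* transgene acts in the eye field lineage. Each group was 1 library of dissociated cells from 3 pooled samples, made after cornea, lens and optic nerve had been taken away. *Rx* is another name of *Rax*, and the sources used here do not say whether the transgene carries transcribed *Rax* sequence, so endogenous and transgenic *Rax* UMIs cannot be told apart.

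The eye field is the part of the anterior neural plate that forms the optic vesicles. Its cells express these transcription factors together, and each of them is known from loss-of-function mutants to be needed for some step of eye formation. After the optic cup has formed, the genes part ways. The inner layer, the neural retina, keeps *Rax*, *Six3*, *Six6*, *Lhx2* and *Pax6* in dividing progenitors, whereas *Otx2* and *Otx1* mark the outer layer, the retinal pigment epithelium (RPE), and *Otx2* returns in newborn photoreceptors. *Pax6* stays on in amacrine, horizontal and ganglion cells, and it also marks the surface ectoderm that gives rise to lens and cornea.

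The proteins bind DNA through homeodomains, and many, though not all, homeodomains recognise sites with a TAAT core. The windows of 250 bases just upstream of an annotated RefSeq start (GRCm38.p6) are shown for the members whose window held no annotated exon, because they are the stretch in which such letters could be looked for. The *Otx2* window lies at chr14:48667645-48667894 on the minus strand, within the span of the gene, upstream of an internal start. The *Lhx2* window lies at chr2:38339031-38339280 on the plus strand, and the *Pax6* window at chr2:105668646-105668895 on the plus strand. All are written 5′ to 3′ on the strand of the gene, and capitals mark TAATTA.
Otx2: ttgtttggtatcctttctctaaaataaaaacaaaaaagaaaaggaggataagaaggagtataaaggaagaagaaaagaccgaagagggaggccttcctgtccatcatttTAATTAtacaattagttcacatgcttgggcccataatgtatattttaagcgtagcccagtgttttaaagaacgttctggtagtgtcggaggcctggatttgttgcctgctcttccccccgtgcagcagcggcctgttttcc
Lhx2: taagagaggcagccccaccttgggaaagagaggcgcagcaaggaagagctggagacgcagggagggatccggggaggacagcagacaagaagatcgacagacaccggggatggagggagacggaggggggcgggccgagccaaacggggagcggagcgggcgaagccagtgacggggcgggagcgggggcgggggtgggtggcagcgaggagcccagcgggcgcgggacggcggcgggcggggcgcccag
Pax6: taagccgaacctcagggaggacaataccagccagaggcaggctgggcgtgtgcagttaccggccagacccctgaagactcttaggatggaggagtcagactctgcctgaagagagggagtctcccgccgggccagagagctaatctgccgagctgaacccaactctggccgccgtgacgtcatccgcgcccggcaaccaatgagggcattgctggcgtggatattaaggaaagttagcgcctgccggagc
TAATTA, which reads the same on both strands, was present 1 time in the *Otx2* window and 0 times in those of *Lhx2* and *Pax6*. It was present in 4.84% of the 32851 RefSeq windows of the same length. TAATCC, the form bound by Otx proteins, was searched on both strands and was in none of these windows, against 6.25% of all windows. *Otx2* also had windows over its own annotated exons, which are not shown. The one at chr14:48665110-48665359 held 3 TAATTA and 1 TAATCC, and the others held neither. GC content was 42% in the *Otx2*, 60.8% in the *Pax6* and 72.8% in the *Lhx2* window. These matches describe letters only.

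Of 6039 control and 6754 mutant barcodes, 5468 and 6300 cells were kept, with median depths before filtering of 10083 and 10638 UMIs. Clusters gave 13 named classes, and 737 control and 649 mutant cells stayed in clusters without a name. The retinal lineage held 5 classes, listed here with control and mutant cells: RPE-like (253 and 156), retinal progenitor-like (1607 and 1675), neurogenic precursor-like (204 and 229), amacrine or horizontal precursor-like (113 and 139) and ganglion cell-like (390 and 535). The libraries shared 72 barcodes, and 57 of those kept in each lay in 1 unnamed cluster, while the retinal classes held 0 to 2 per library. Leaving the shared barcodes out moved none of the 35 ratios of members beyond its interval. In the RPE-like class *Myrf* had 155 UMIs, or 74.0 in 1000000 UMIs of the class (CPM), in the control and 30 UMIs, or 20 CPM, in the mutant library, which is -1.85 (-2.50 to -1.31) as a log2 ratio, although 3′ tags can lie outside a deleted part. Red blood cells should lack the 7 genes, and their levels there, which free RNA in the droplets can give, were 0 to 5.68 CPM in control and 0.585 to 12.5 CPM in mutant cells.

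Levels are sums of UMIs over the cells of a class in CPM, with exact Poisson 95% intervals in parentheses where given. With 1 library per genotype there was no spread between replicates, no test was made, and every interval covers counting error only. In a class sum, fewer cells with a transcript and less transcript per cell cannot be told apart. How well 3′ tags are captured differs between genes, so each gene was compared with itself across classes or libraries, and shares of a paralog pair were compared only between classes and libraries.

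*Rax*, whose loss leaves mice without eyes, was highest in retinal progenitor-like cells. Its level there was 497 CPM (487 to 507) in control and 537 CPM (527 to 548) in mutant cells. It was 271 and 273 CPM in neurogenic precursor-like, 171 and 148 CPM in amacrine or horizontal precursor-like, and 64.4 and 65.1 CPM in ganglion cell-like cells. Each step down this order was larger than the intervals in both libraries. RPE-like cells came next among the retinal classes at 26.3 CPM (19.8 to 34.2) and 15.4 CPM (9.74 to 23.1), which overlapped endothelium-like cells at 19.4 and 10.0 CPM. Of all *Rax* UMIs in kept cells, 86.1% in control and 85.3% in mutant came from retinal progenitor-like cells.

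*Six6*, the paralog of *Six3* known for keeping retinal progenitors dividing, had the same peak and a shallower tail. It reached 667 CPM (656 to 679) in control and 680 CPM (668 to 692) in mutant retinal progenitor-like cells, which held 85.8% and 85.3% of its UMIs. Neurogenic precursor-like cells followed in the control library at 240 CPM, above amacrine or horizontal precursor-like cells at 190 CPM. This order was turned in the mutant library, at 187 CPM (172 to 204) and 229 CPM (206 to 254). Ganglion cell-like cells were at 176 and 164 CPM, and in each library their interval overlapped that of the class just above. RPE-like cells were lowest of the retinal classes at 75.5 and 65.5 CPM.

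*Six3*, a repressor of Wnt signals in the forebrain and retina, had its maximum in ganglion cell-like cells, at 563 CPM (539 to 588) and 547 CPM (526 to 569). Amacrine or horizontal precursor-like cells were at 332 and 351 CPM and retinal progenitor-like cells at 290 and 321 CPM. These neighbours were apart in the control library and overlapped in the mutant. Below them came neurogenic precursor-like cells at 254 and 259 CPM and RPE-like cells at 179 and 163 CPM. *Six3* was thus spread over more classes than *Six6*: retinal progenitor-like cells held 58.1% and 57.1% of its UMIs and ganglion cell-like cells 21.2% and 23.1%.

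*Pax6*, which encodes a paired and homeodomain protein and is needed for nearly all eye tissues, peaked in amacrine or horizontal precursor-like cells at 1006 CPM (954 to 1060) and 969 CPM (921 to 1018). Ganglion cell-like cells had 623 and 591 CPM and retinal progenitor-like cells 429 and 423 CPM, each apart from the class above. Neurogenic precursor-like cells overlapped the progenitors in the control library, at 399 CPM (374 to 425), and lay under them in the mutant, at 349 CPM (327 to 371). RPE-like cells had 225 CPM (205 to 246) and 202 CPM (180 to 226), below all other retinal classes. At a finer clustering, the cluster of 148 cells led by *Ptf1a* and *Prdm13*, factors of the amacrine and horizontal lineage, had 1491 and 1391 CPM.

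*Lhx2*, a LIM homeodomain gene without which the optic vesicle arrests, was, like *Pax6* and *Six3*, found in both layers of the cup. Its levels were 270 CPM (263 to 277) and 272 CPM (265 to 280) in retinal progenitor-like cells and 204 CPM (185 to 224) and 162 CPM (143 to 184) in RPE-like cells. Neurogenic precursor-like cells had 111 and 117 CPM, amacrine or horizontal precursor-like cells 82.1 and 70.2 CPM, and ganglion cell-like cells 17.7 and 13.45 CPM. The ganglion cell-like level overlapped that of macrophage-like cells in the control library, at 11.7 CPM (7.27 to 17.95).

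*Otx2*, needed for RPE identity and for photoreceptor fate, was found at high level in only 2 of the 13 classes. RPE-like cells had 350 CPM (325 to 376) in control and 272 CPM (246 to 300) in mutant. Neurogenic precursor-like cells had 251 CPM (232 to 272) and 261 CPM (242 to 281), so the classes were apart in the control and overlapped in the mutant library. Every other class was at 16.3 CPM or below. RPE-like cells supplied 43.4% of the control and 27.2% of the mutant *Otx2* UMIs, and neurogenic precursor-like cells 36.2% and 48.0%. RPE-like cells were 4.63% of kept control cells and 2.48% of kept mutant cells, so these shares also follow the numbers of cells.

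*Otx1*, the paralog of *Otx2*, was highest outside the retina, in surface ectoderm-like cells, at 99.8 CPM (76.9 to 127) and 96.8 CPM (73.3 to 125). RPE-like cells followed at 76.9 CPM (65.5 to 89.8), overlapping them, in control, and at 56.8 CPM (45.4 to 70.2), below them, in mutant. Retinal progenitor-like cells had 16.9 and 14.3 CPM, and neurogenic, amacrine or horizontal and ganglion classes had 12.3 CPM or less.

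**Figure D1:**
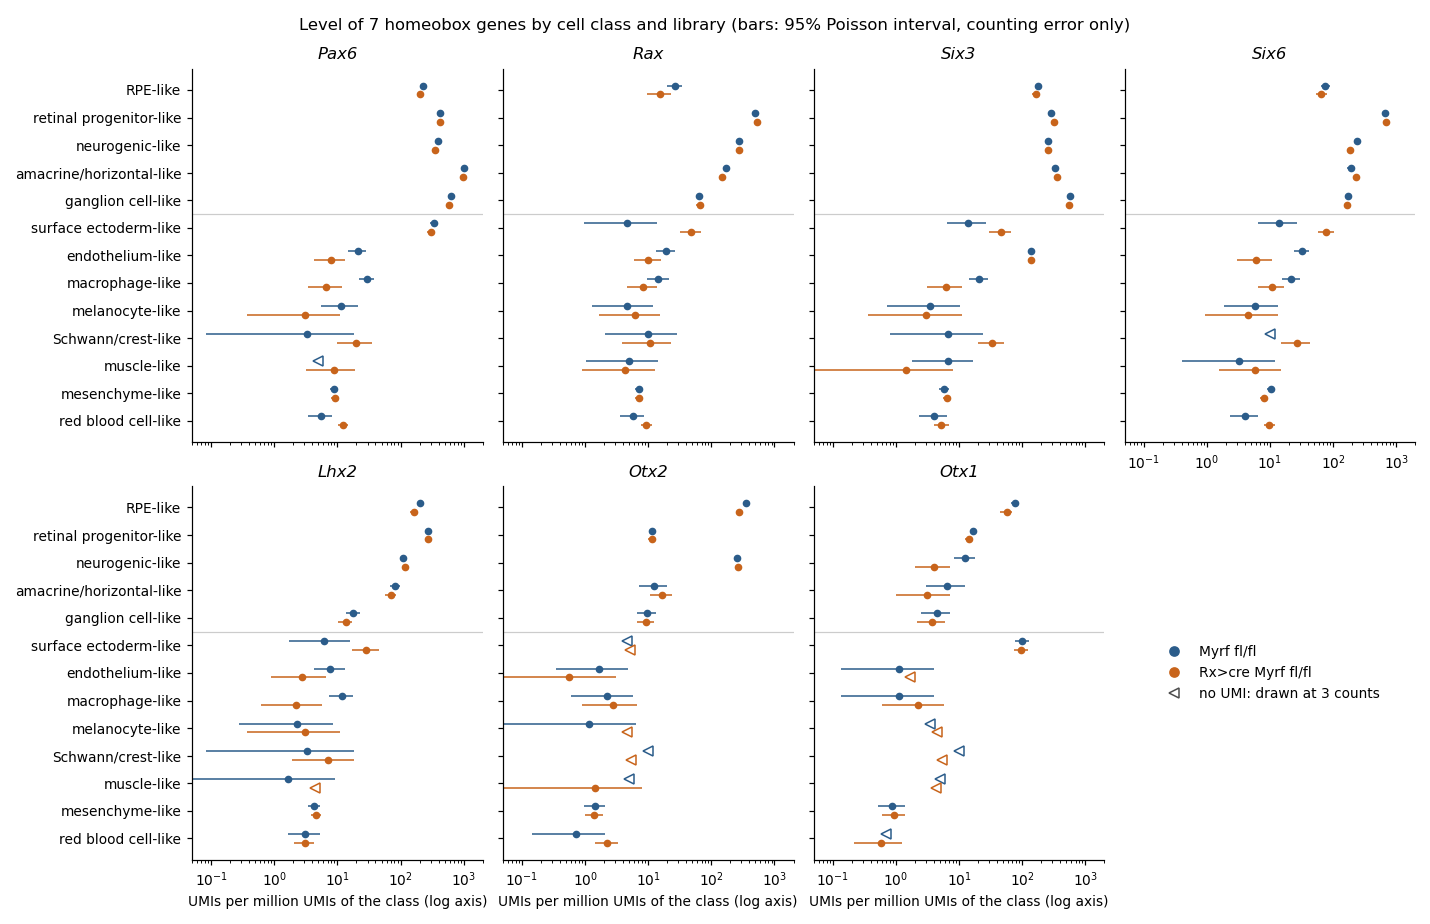
Level of each of the 7 genes (CPM, log axis) in 13 cell classes of the control (blue) and mutant (orange) library, with exact 95% Poisson intervals for counting error as bars, and triangles at 3 counts for classes with no UMI. *Rax* and *Six6* peak in retinal progenitor-like cells, *Pax6* in amacrine or horizontal precursor-like cells, *Six3* in ganglion cell-like cells, *Otx2* in RPE-like and neurogenic precursor-like cells, and *Otx1* in surface ectoderm-like and RPE-like cells.

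Shares of cells with a UMI were compared after each cell had been thinned to 3000 UMIs, because median depth differed between classes. Among the retinal classes it ran before thinning from 4003 (control) and 3540 UMIs (mutant) in RPE-like cells to 12670.5 and 12149 in neurogenic precursor-like cells. Cells with fewer than 3000 UMIs were left out, which removed 120 of 253 RPE-like cells from the control and 76 of 156 from the mutant library. *Otx2* was found in 61.7% of the control RPE-like cells used (60.9% of all of them without thinning), and in 55.0% of the mutant cells used (52.6% without thinning). The thinned shares of the 7 genes were between 0% and 2.91% in red blood cell-like cells, whose median depths were 22477 and 22741 UMIs. A retinal progenitor-like cell showed a mean of 3.10 of the 7 genes in control and 3.23 in mutant, and an RPE-like cell 2.35 and 2.15. Ganglion cell-like cells were lowest of the retinal classes at 2.10 and 2.08, and red blood cell-like cells had 0.079 and 0.114.

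**Figure D2:**
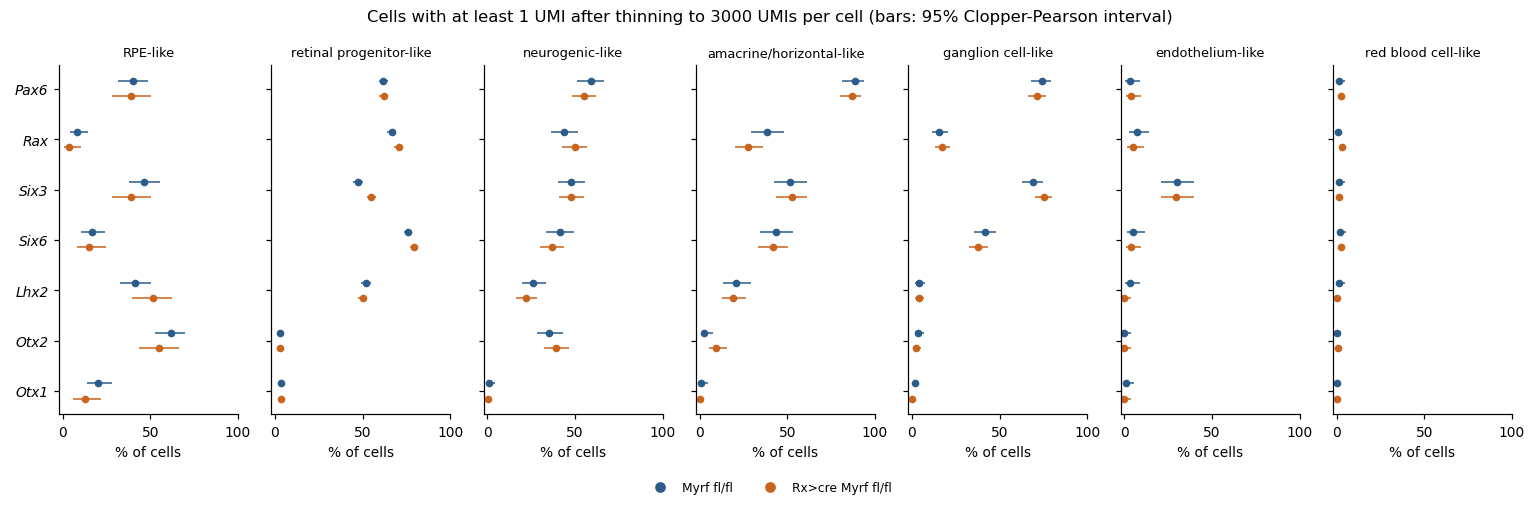
Share of cells with at least 1 UMI of each gene (percent) after thinning every cell to 3000 UMIs, in 7 classes of the control and mutant library, with exact 95% binomial intervals as bars. *Pax6* is found in 88.4% and 86.9% of amacrine or horizontal precursor-like cells, and *Otx2* in 61.7% and 55.0% of RPE-like cells but in 2.96% and 2.95% of retinal progenitor-like cells.

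Some members were found together in the same thinned cell more often than others, given here as a description. Among retinal progenitor-like cells, *Six6* was found in 81.1% of control and 84.5% of mutant cells with a *Six3* UMI. In cells without one it was found in 71.1% and 73.1%. *Otx2* and *Pax6* went the other way in some classes: among neurogenic precursor-like cells, *Pax6* was found in 45.8% and 48.1% of cells with *Otx2* and in 66.7% and 59.8% of cells without. In RPE-like cells these shares were 34.1% and 29.5% with *Otx2*, against 49.0% and 50% without it. Ganglion cell-like cells had 55.6% and 50% against 74.8% and 72.0%. In retinal progenitor-like cells *Pax6* was instead found more often with *Otx2*, at 74.4% and 77.8% against 61.5% in each library. Amacrine or horizontal precursor-like cells had 100% against 88.1% and 85.5%, on 3 and 13 cells with *Otx2*. For this pair the intervals with and without *Otx2* overlapped in every retinal class and library.

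The paralog pairs were compared by the share of one paralog in the UMIs of both, which depends neither on the depth of a class nor on its total. *Six6* made up 69.7% (exact binomial 95% interval 69.1% to 70.4%) of *Six6* plus *Six3* UMIs in control retinal progenitor-like cells and 67.9% (67.3% to 68.6%) in mutant ones. In neurogenic precursor-like cells the share was 48.5% (45.7% to 51.4%) in control and 41.99% (39.2% to 44.8%) in mutant. These were the retinal classes in which the intervals of the libraries were apart. With classes set by a rule on the markers of each cell in place of clusters, the neurogenic values were 47.3% (44.8% to 49.8%) and 44.8% (42.4% to 47.2%), which overlap. The share was 36.4% and 39.5% in amacrine or horizontal precursor-like, 29.6% and 28.7% in RPE-like and 23.8% and 23.0% in ganglion cell-like cells. The share of *Six6* was thus higher in progenitors than in each of the other retinal classes, in both libraries.

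*Otx1* made up 18.01% (15.5% to 20.7%) of *Otx1* plus *Otx2* UMIs in control RPE-like cells and 17.3% (14.04% to 20.9%) in mutant ones. In neurogenic precursor-like cells it was 4.68% (3.18% to 6.61%) and 1.51% (0.756% to 2.68%). Retinal progenitor-like cells had 59.2% and 55.7%, at low levels of both genes. Surface ectoderm-like cells had 64 *Otx1* UMIs in control and 57 in mutant with 0 of *Otx2*, which allows an *Otx1* share of no less than 94.4% and 93.7%. The share of *Otx1* was thus lowest in neurogenic precursor-like cells and highest in surface ectoderm-like cells among the classes given here.

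**Figure D3:**
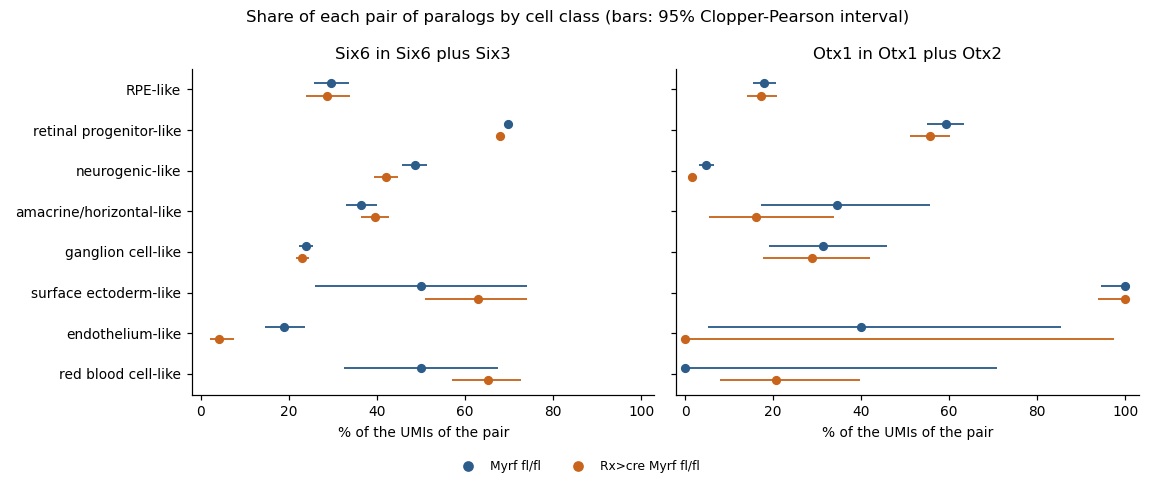
Share of *Six6* in *Six6* plus *Six3* UMIs and of *Otx1* in *Otx1* plus *Otx2* UMIs (percent) in 8 classes of the control and mutant library, with exact 95% binomial intervals as bars. *Six6* falls from 69.7% and 67.9% in retinal progenitor-like cells to 23.8% and 23.0% in ganglion cell-like cells, and *Otx1* is 18.01% and 17.3% of its pair in RPE-like cells.

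The comparison of the genotypes asked whether the levels of these genes moved where *Myrf* had been removed. It is given as the log2 ratio of mutant to control CPM with an exact 95% interval for counting error, and a gene is called where the interval leaves out 0 and the ratio is past 0.5 in size. *Myrf* was expressed in RPE-like cells, and there the ratios of all 7 genes were negative, with a median of -0.32 against -0.03 over the 9724 genes compared. *Rax* was called lower, 1 of 7, where 9.71% of all genes were called and 6.14% were called lower. The interval left out 0 for 4 of 7, all lower, against 15.9% of all genes (8.85% lower) and 21.6% of those counted at least as well as the least counted member.

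In this class *Otx2* had 733 UMIs (350 CPM) in the control and 407 (272 CPM) in the mutant library, and its ratio was -0.36 (-0.54 to -0.19). *Otx1* had 161 UMIs (76.9 CPM) and 85 (56.8 CPM), a ratio of -0.43 (-0.83 to -0.05). The Otx paralogs were thus both lower in the mutant library, and the share of *Otx1* in their sum had overlapping intervals. *Lhx2* had 426 UMIs (204 CPM) and 243 (162 CPM), a ratio of -0.32 (-0.56 to -0.10).

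*Rax*, a gene of the neural retina, had 55 RPE-like UMIs (26.3 CPM) in control and 23 (15.4 CPM) in mutant, a ratio of -0.74 (-1.54 to -0.05). It was the least counted member in the class and rested on few cells, being found in 8.27% of control and 3.75% of mutant cells after thinning. Its level was 4.62 times that of red blood cell-like cells in control and 1.64 times in mutant. Without the cell with the most *Rax* UMIs in each library the log2 ratio was -0.70 (-1.57 to 0.05), and among cells of at most 20000 UMIs it was 0.15 (-0.79 to 0.97). *Pax6* (470 and 302 UMIs), *Six3* (375 and 244) and *Six6* (158 and 98) had ratios of -0.15 (-0.37 to 0.06), -0.13 (-0.37 to 0.10) and -0.20 (-0.58 to 0.17), all with 0 inside the interval.

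The thinned shares did not follow the levels for every gene. Among RPE-like cells *Otx1* was in 20.3% (control) and 12.5% (mutant), in the direction of its CPM. *Lhx2* was in 41.4% (32.9% to 50.2%) and 51.2% (39.8% to 62.6%), against the direction of its CPM, so no order is read from it. All 7 pairs of shares had overlapping intervals at 133 control and 80 mutant cells.

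Cells of female and male embryos, told apart by sex-linked transcripts, gave 2 subsets per library from different animals. Cells with no UMI of *Xist* or of the Y-linked genes, or with UMIs of both, were left out. The subsets held 42 female and 65 male of 253 control RPE-like cells, and 15 and 45 of 156 mutant ones. They are thus a part of the class, and their levels can differ from those of the whole. *Lhx2* had 213 CPM in female and 218 CPM in male control RPE-like cells, and 138 and 173 CPM in the mutant ones. *Otx2* had 300 and 369 CPM in control and 288 and 264 CPM in mutant cells. *Otx1* had 74.5 and 74.0 CPM in control and 51.3 and 65.1 CPM in mutant cells. Both mutant values lay below both control values for these 3 genes, and likewise for *Rax* and *Six6*. How many of all genes did so was not counted, so nothing is read from this order. For *Pax6*, at 240 and 228 CPM in control and 229 and 205 CPM in mutant, and for *Six3*, the subsets overlapped. The female mutant subset held 15 cells, and the subsets are no replicates of the genotype, since each library was prepared as 1 pool.

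The share of mitochondrial UMIs moved with several of the ratios. Among RPE-like cells with at most 5% mitochondrial UMIs, which were 104 control and 88 mutant cells, *Otx2* was at 228 CPM in control and 242 CPM in mutant. Among those over 5%, which were 149 and 68 cells, it was at 396 and 304 CPM. *Six6* had 148 and 67.9 CPM in the low and 48.1 and 62.8 CPM in the high subset, and *Six3* had 138 and 205 CPM in the low and 195 and 117 CPM in the high subset, so both changed direction. *Lhx2* was lower in the mutant library in both subsets, at 214 and 169 CPM in the low and 199 and 155 CPM in the high one. The same held for *Otx1*, at 74.9 and 65.4 CPM and at 77.7 and 47.4 CPM, and for *Pax6*, at 287 and 226 CPM and at 201 and 176 CPM. Over the whole RPE-like class the median mitochondrial share was 5.29% in control and 4.81% in mutant cells, and its part in the ratios was not tested.

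**Figure D4:**
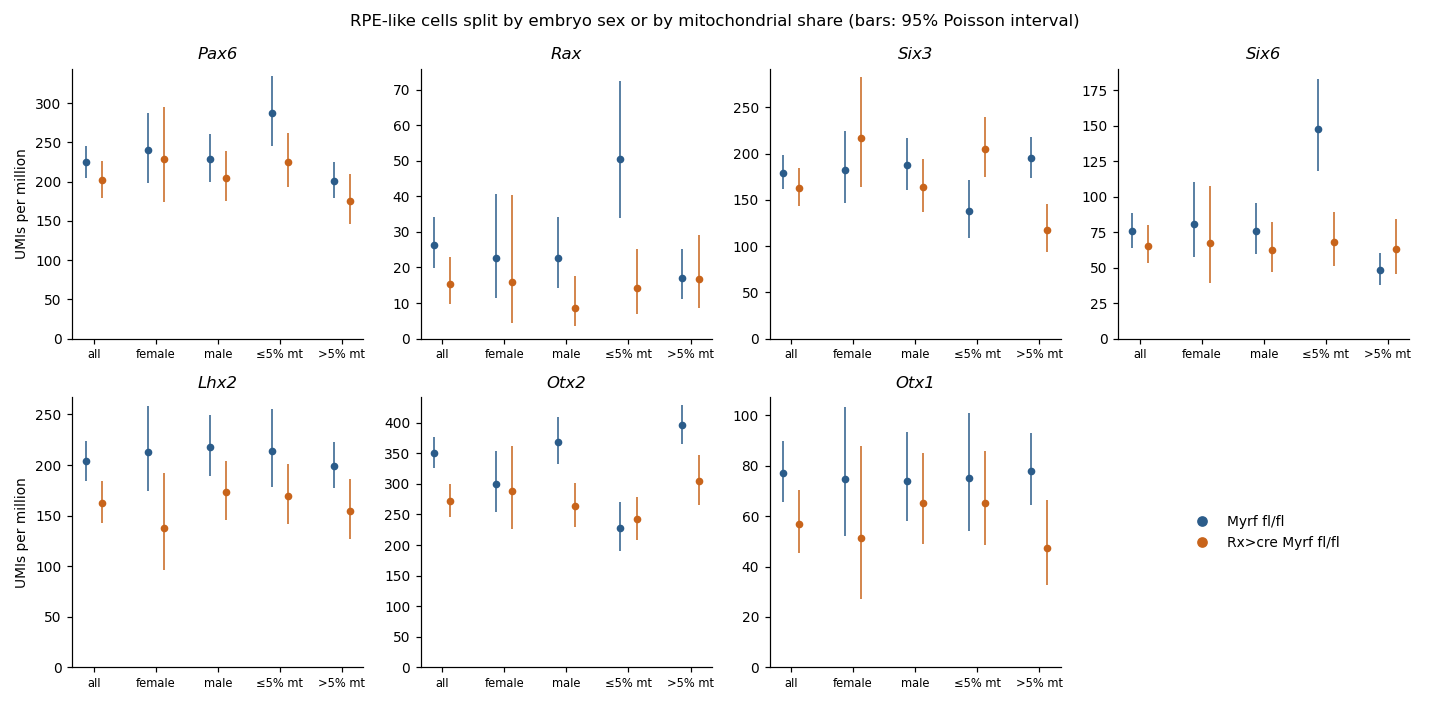
Level of each gene (CPM) in RPE-like cells of the control and mutant library, for all cells, cells of female and of male embryos, and cells with at most and over 5% mitochondrial UMIs, with exact 95% Poisson intervals as bars. *Pax6*, *Rax*, *Lhx2* and *Otx1* are lower in the mutant library in each subset drawn, while *Otx2*, *Six3* and *Six6* change direction between subsets.

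Markers of other cells also moved in the RPE-like class. The summed level of 10 RPE markers was 13526 CPM in control and 9706 CPM in mutant, 7 of 10 being lower. The 6 retinal progenitor markers summed to 677 and 486 CPM (5 of 6 lower) and the 11 ganglion cell markers to 183 and 46.8 CPM (10 of 11 lower). The 8 neurogenic precursor markers summed to 266 and 549 CPM, with 2 of 8 lower, and the 6 red blood cell markers to 675 and 1240 CPM, with 0 of 6 lower. Their part in the ratios of *Rax*, *Six6* and the others was not tested. At a finer clustering the class split by depth. The shallow cluster, at a median of 1184 UMIs, had *Rax* at 74.0 CPM in control and 40.3 in mutant and *Pax6* at 424 and 325 CPM. The deep cluster, led by *Ttr*, *Pmel* and *Rlbp1*, had *Rax* at 13.4 and 7.11 CPM, *Pax6* at 171 and 161 CPM, *Otx2* at 382 and 291 CPM and *Otx1* at 82.0 and 63.1 CPM. The mutant value was the lower one in both clusters for each of these genes, *Otx2* being at 231 and 212 CPM and *Otx1* at 58.3 and 37.6 CPM in the shallow one. The intervals of the *Rax* and *Otx1* ratios held 0 in both clusters. *Lhx2* and *Six6* were also lower in both. *Six3* changed direction, with a ratio of 0.60 (0.06 to 1.16) in the shallow and -0.30 (-0.57 to -0.03) in the deep cluster.

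Retinal progenitor-like cells came from the lineage in which the Cre acts, and *Rax* and *Six3* were higher there in the mutant library by small amounts. *Rax* had a log2 ratio of 0.11 (0.07 to 0.15) and *Six3* of 0.15 (0.09 to 0.20). None of the 7 genes was called, where 2.97% of all genes were. The interval left out 0 for 3 of 7, *Otx1* being the other at -0.24 (-0.48 to -0.01), against 15% of all genes and 20.6% of those counted at least as well as *Otx2*, the least counted member here. *Pax6* at -0.02 (-0.07 to 0.02), *Six6* at 0.03 (-0.01 to 0.06), *Lhx2* at 0.01 (-0.04 to 0.07) and *Otx2* at -0.04 (-0.32 to 0.24) had 0 inside the interval.

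The class was made of 5 clusters, among which levels ran over a wide range. *Rax* ran from 298 to 585 CPM in control and from 342 to 602 CPM in mutant clusters, and *Six3* from 140 to 363 CPM and from 173 to 399 CPM. Both were higher in the mutant library in 5 of 5 clusters, *Six6* in 3, *Pax6*, *Lhx2* and *Otx2* in 2 and *Otx1* in 0. With 7 finer clusters *Six3* was higher in 7 and *Rax* in 6. Thinned shares went the same way, *Six3* being found in 47.4% (44.8% to 49.96%) of control and 54.9% (52.3% to 57.4%) of mutant cells and *Rax* in 66.5% (64.0% to 69.0%) and 70.5% (68.1% to 72.8%).

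The subsets by embryo held 454 female and 357 male of 1607 control progenitors, and 463 and 409 of 1675 mutant ones. In them *Rax* was at 510 CPM in female and 539 CPM in male control progenitors and at 548 and 565 CPM in the mutant ones. *Six3* was at 310 and 321 CPM in control and at 350 and 330 CPM in mutant. The mutant subsets thus lay above the control ones for both genes, but in male embryos alone the log2 ratios were 0.07 (-0.0041 to 0.14) for *Rax* and 0.04 (-0.06 to 0.13) for *Six3*, with 0 inside the interval. The share of all genes with such an order was not counted. The Otx genes showed how far subsets of 1 library can lie apart. *Otx1* was at 14.6 CPM in female and 22.9 CPM in male control progenitors, and at 18.4 and 14.8 CPM in mutant ones. *Otx2* was at 15.4 and 9.44 CPM in control and at 9.88 and 13.8 CPM in mutant. For each Otx gene the ratio had one sign in female and the other in male embryos, so the lower *Otx1* of the whole class did not hold within both sexes. Red blood cell markers in the class summed to 365 CPM in control and 2099 CPM in mutant, and the ratios of *Rax* and *Six3* without mitochondrial, haemoglobin and ribosomal protein genes in the total were 0.13 and 0.16.

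*Otx1* was not spread evenly among the progenitors. In the finer clusters it reached 39.7 CPM in control and 34.5 CPM in mutant in 1 cluster of 341 cells and was at 18.9 CPM or less in each of the others. The cluster was led by *Vax2os*, *Aldh1a3*, *Wfdc1*, *Vax2* and *Col9a1*, and *Wfdc1* and *Col9a1* are known from the margin of the optic cup. Of 8 ciliary margin markers, only 2 were raised past a log2 fold of 1 in this cluster. *Lhx2* was at 355 and 386 CPM in it, *Six6* at 588 and 522 CPM and *Six3* at 220 and 234 CPM.

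**Figure D5:**
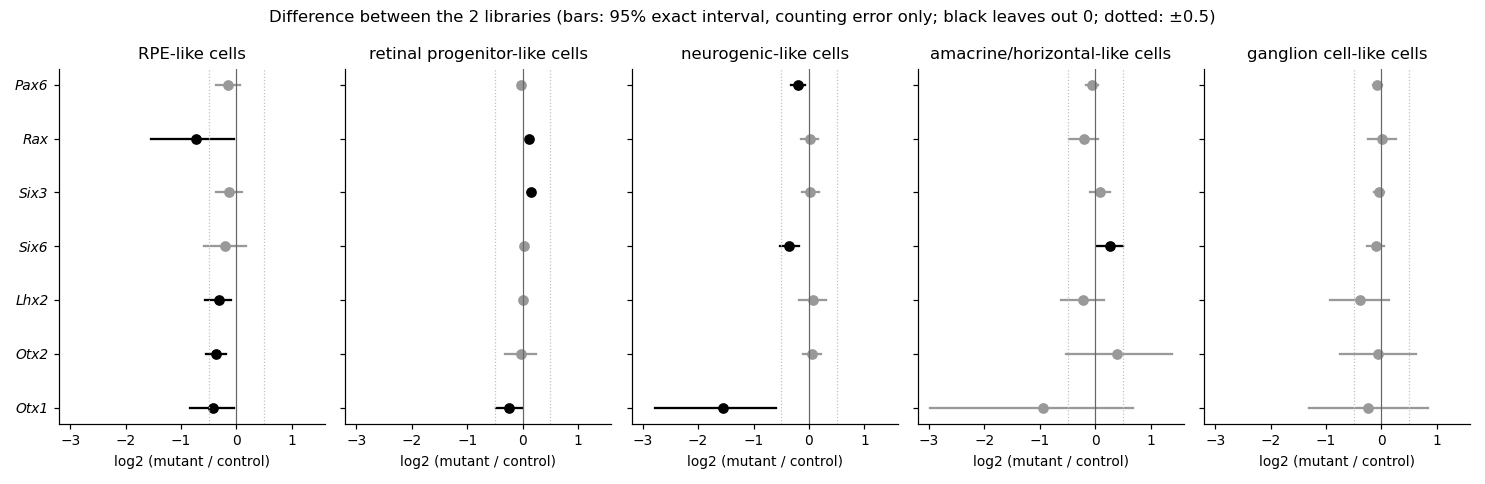
Log2 ratio of mutant to control level for each gene in the 5 retinal classes, with exact 95% intervals for counting error as bars, black where the interval leaves out 0, and dotted lines at 0.5 and -0.5. All 7 ratios are below 0 in RPE-like cells, where *Rax* is at -0.74, whereas in retinal progenitor-like cells they lie between -0.24 and 0.15.

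In neurogenic precursor-like cells 3 of 7 genes had an interval that left out 0, all lower in the mutant library, against 8.56% of all genes (5.26% lower). *Otx1* was called lower, 1 of 7, where 4.23% of all genes were called and 3.11% lower, on 30 control and 11 mutant UMIs, at a ratio of -1.55 (-2.77 to -0.59). *Six6* was at -0.35 (-0.53 to -0.18) and *Pax6* at -0.19 (-0.33 to -0.06). In both sexes these 3 genes were lower in the mutant, *Six6* by -0.44 in female and -0.43 in male embryos. How many of all genes were lower in both sexes was not counted. *Otx2*, at 0.05 (-0.10 to 0.21), and *Rax*, *Six3* and *Lhx2*, at 0.01 to 0.06, had 0 inside the interval. Red blood cell markers in the class summed to 3428 CPM in control and 674 CPM in mutant, the reverse of the progenitors, and their part in the ratios was not tested.

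Within the neurogenic class the *Otx2* level was highest in cells with photoreceptor precursor genes. At the finer clustering, 50 control and 78 mutant cells led by *Neurod1*, *Neurod4*, *Otx2*, *Prdm1* and *Crx*, the last being a photoreceptor homeobox gene downstream of *Otx2*, had *Otx2* at 453 CPM and 434 CPM (276 and 406 UMIs). A cluster of 309 cells led by *Neurog2* and *Atoh7*, proneural genes of cells leaving the cycle, had it at 182 and 167 CPM. *Otx1* was found there and lower in the mutant, at 15.2 CPM and 3.74 CPM (28 and 7 UMIs), while in the *Crx* cluster it was at 3.28 and 5.34 CPM.

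In amacrine or horizontal precursor-like cells 0 of 6 genes with enough UMIs was called, where 5.38% of all genes were. *Six6* was higher at 0.27 (0.04 to 0.50), on 264 and 366 UMIs, with an interval that left out 0, as in 9.27% of all genes (3.96% higher). *Pax6* was at -0.05 (-0.16 to 0.05), and the ratios of the others ran from -0.23 for *Lhx2* to 0.38 for *Otx2*, with 0 inside each interval. In ganglion cell-like cells 0 of 7 was called, where 3.95% of all genes were, and no interval left out 0, against 9.55% of all genes. *Pax6* was at -0.08 (-0.16 to 0.01) and *Six3* at -0.04 (-0.13 to 0.04).

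Outside the retina the levels of *Pax6*, *Otx1* and *Six3* stood out in both libraries. *Pax6* was at 340 CPM (296 to 388) and 309 CPM (266 to 358) in surface ectoderm-like cells, in 40 of 69 control and 39 of 71 mutant cells, and *Otx1* was highest there. *Six3* was at 139 CPM (122 to 157) and 139 CPM (123 to 158) in endothelium-like cells, with 250 UMIs in each library and a ratio of 0.01 (-0.25 to 0.27). It was found in 29.9% and 29.7% of these cells after thinning, and in 47.2% and 42.2% before, against 6.73% and 8.01% of red blood cell-like cells before thinning. *Six6* made up 18.8% of the pair there in control and 4.21% in mutant, beside 50% and 65.2% in red blood cell-like cells.

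In the same endothelium-like cells *Pax6*, *Rax* and *Six6* were called lower, 3 of the 4 members with enough UMIs to be compared, where 4.38% of all genes were called lower. They had 38 and 14, 35 and 18, and 58 and 11 UMIs. Without the cell with the most UMIs of the gene in each library *Rax* was at -0.92 (-2.01 to 0.018) and was no longer called, while *Pax6*, at -1.16 (-2.33 to -0.20), and *Six6*, at -2.11 (-3.45 to -1.17), were. The retinal progenitor markers in the class summed to 567 CPM in control and 368 CPM in mutant. In surface ectoderm-like cells *Rax*, *Six3*, *Six6* and *Lhx2* were called higher, 4 of the 6 members compared, where 3.49% of all genes were called higher, on 3 and 28, 9 and 27, 9 and 46, and 4 and 17 UMIs, *Rax* being at 2.98 (1.65 to 5.71). A single mutant cell held 76.5% of the *Lhx2* and 47.8% of the *Six6* UMIs, and without the top cell of each library *Lhx2* was at 0.56 (-1.91 to 3.42), while *Rax*, at 2.81 (1.26 to 6.47), *Six3*, at 1.498 (0.32 to 3.10), and *Six6*, at 1.80 (0.67 to 3.39), kept intervals above 0. The retinal progenitor markers in the class summed to 468 and 804 CPM, and with the rule per cell in place of clusters *Six6* had 4 and 5 UMIs and *Six3* 7 and 11. Other classes also had called members. In macrophage-like cells *Pax6* (52 and 12 UMIs), *Six3* (37 and 11), *Six6* (39 and 19) and *Lhx2* (21 and 4) were lower. In red blood cell-like cells *Pax6* (5.44 and 12.5 CPM), *Rax* (5.68 and 9.36) and *Six6* (4.02 and 9.85) were higher. *Six3* was higher in Schwann or neural crest-like cells (2 and 19 UMIs). The share of all genes called there was not counted. The part of free RNA in the droplets in these calls was not tested.

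The genes that work with the 7 members were taken as lists chosen by function. Of 23 partner transcription factors of the optic cup, 18 had enough UMIs in RPE-like cells, 5 were called lower and 1 higher, and the median ratio was -0.23. Over all genes compared in the class 6.14% were called lower and 3.57% higher, and the median was -0.03. The lower ones were *Tbx2* (-1.84, 29 and 5 UMIs), *Mab21l1* (-1.14, 85 and 27), *Gsx2* (-1.04, 220 and 76), *Sox9* (-0.87, 291 and 113) and *Vax2* (-0.87, 86 and 33). *Sox9* encodes a factor that acts with OTX2 and MITF on RPE genes, and *Vax2* and *Tbx2* set the axes of the cup. The higher one was *Sox2* (0.82, 45 and 57), a factor of neural progenitors. *Mitf*, the master gene of pigment cells, was at -0.18, and *Meis2*, *Mab21l2* and *Nr2f1* were at 0.21, 0.26 and 0.37, none of them called. In retinal progenitor-like cells 0 of 21 of these genes was called, where 2.97% of all genes were, and the median was -0.02, as over all genes.

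Of 21 cofactors of the member proteins, which include the LIM-binding Ldb and Lmo, the Groucho-type Tle and the Eya and Dach families, 18 were compared in RPE-like cells and 1 was called lower and 2 higher, with a median of -0.10, beside the same 6.14% and 3.57% of all genes. *Eya2* was at -0.57 (88 and 42 UMIs), *Gmnn*, which encodes the SIX3-binding inhibitor of replication licensing geminin, at 0.98 (106 and 150) and *Dach2* at 1.57 (7 and 16). None of 20 was called in retinal progenitor-like cells. Of 23 paralogs, 22 were in the tables and few were expressed: 4 were compared in RPE-like cells, of which *Prrx1*, a mesenchymal gene, was lower at -1.14 (39 and 12 UMIs). Of 10 compared in retinal progenitor-like cells, with a median of -0.56, *Six2* (-1.32, 32 and 12 UMIs) and *Prrx1* (-0.55, 106 and 71) were lower and *Crx* (1.07, 13 and 28) was higher, where 2.97% of all genes were called. The 9 periocular mesenchyme markers, *Prrx1* among them, summed to 60.0 CPM in control and 44.6 CPM in mutant progenitors, 7 of 9 being lower. Their part in these ratios was not tested. In the neurogenic, amacrine or horizontal and ganglion classes few listed genes were called, where 4.23%, 5.38% and 3.95% of all genes were. In neurogenic precursor-like cells *Crx* was lower at -0.59 (112 and 84 UMIs), *Eya3* lower at -1.004 and *Foxd1*, a gene of the temporal retina, higher at 0.66. In amacrine or horizontal precursor-like cells *Foxd1* was higher at 1.10 and *Sox2* lower at -0.50, and in ganglion cell-like cells *Lmo2* was lower at -0.84.

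*Otx2* lies at chr14:48657677-48673819 on the minus strand of GRCm38. The long noncoding RNA *Otx2os1*, at chr14:48668708-48870683 on the plus strand, overlaps it by 5112 bases, and 1 exon of *Otx2os1* overlaps an exon of *Otx2*. *Otx2os1* was called lower in RPE-like cells, on 130 UMIs (62.1 CPM) in control and 63 (42.1 CPM) in mutant, at a ratio of -0.55 (-1.02 to -0.12) beside -0.36 for *Otx2*. The use of strand in counting is not given in the sources used here, so reads of the partners in the shared part cannot be told apart. *Pax6*, at chr2:105668900-105697364 on the plus strand, overlaps *Pax6os1* by 1431 bases, and no exon of *Pax6os1* overlaps an exon of *Pax6*. *Pax6os1* was compared in retinal progenitor-like cells and was at 0.12 (210 and 225 UMIs).

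The genes most like each member were ranked by Pearson's r of log2 levels over 22 sums, 11 classes in each of the libraries, among 5232 genes with a mean of at least 20 CPM. The sums share libraries and differ in depth, and the values are a description. The genes like *Rax* included *Vax2os* (0.96) and *Sox2* (0.96), and *Six6* was most like *Vax2* (0.98), *Vax2os* (0.95) and *Rax* (0.95). *Lhx2* was most like *Cspg5* (0.97), *Sfrp2* (0.92) and *Sox2* (0.91), *Pax6* most like *Cacng4* (0.96), *Ddr1* (0.96) and *Sapcd1* (0.93), and *Six3* most like *Plekha1* (0.94), *Pea15a* (0.90) and *Vax2* (0.88). *Otx2* stood more apart, its most like genes *Pip5k1b*, *Car14* and *Cspg5* being at 0.82, 0.77 and 0.72. *Otx1* was most like *Ehbp1* (0.96), *Upk3bl* (0.94) and *Bcam* (0.93), and its r with the other 6 members ran from 0.13 to 0.51. These lists depended on the lowest mean level allowed. With a mean of at least 50 CPM they moved for 6 members, and *Otx2* was then most like *Car14*, *Lhx2* and *Neurog2*.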

How the data were processed

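Single-cell RNA sequencing of e13.5 mouse eye cups gave 1 library per genotype (10x 3′ chemistry). The deposited values are raw UMI counts per gene and barcode, which the authors made with Cell Ranger 7.1.0 on mm10, per the submitters' processing notes, which also name Seurat 4.1.1. The annotation and the use of strand are not given in the sources used here, and counting by gene can mix overlapping genes. The members and gene lists were chosen with earlier results of these data known.

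Cells with at least 200 genes and at most 15% mitochondrial UMIs were kept, and doublets (expected 5%) were called with Scrublet in scanpy 1.11.5, which took out 51 control cells (0.924%) and 74 mutant cells (1.16%). The study took cells over 2000 counts for doublets, which was tried as an alternative only because median depth was above it. Cells were clustered with Seurat 5.3.0 in R 4.3.3 (2000 variable features without the members and listed genes, integration of the libraries, 30 dimensions, resolution 0.8). A cluster was named from markers of its class with at least 3 raised by a log2 fold of 1 and a mean of 0.5, thresholds set after the clusters were seen. The amacrine or horizontal precursor-like cluster scored higher for neurogenic markers and was named from its leading genes. Class names may differ from the study's.

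UMIs were summed per class and library with Python 3.11.15 and scipy 1.17.1. The files hold 63483835 control and 75228861 mutant UMIs. Levels have exact Poisson, shares Clopper-Pearson and ratios exact conditional binomial 95% intervals, with 1 UMI added to each sum for the ratio and genes compared at 20 UMIs or more over both libraries. A count of 0 was drawn at a floor of 3 counts. Likeness used log2(CPM + 10) over classes with at least 30 cells per library. The scripts were tested on simulated data. With 1 library per group no test was made. Named genes were the 7 members, the 3 genes most like each, called genes of each list with up to 4 others of most UMIs, and *Myrf*. Clusters and leading genes named at the finer resolution of 1.6 were chosen after their values were seen. Promoter sequence of *Rax* and 1 of the genes most like it are not reported here.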

Additional observations from a re-analysis of the deposited data

Results flagged for a closer look

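For 2 genes the log2 ratios in a pair of retinal classes had opposite signs and intervals that each left out 0. The log2 ratio of *Rax* was -0.74 in RPE-like cells and 0.11 in retinal progenitor-like cells. The log2 ratio of *Six6* was -0.35 in neurogenic precursor-like cells and 0.27 in amacrine or horizontal precursor-like cells. With 1 library per genotype each group is a single sample, and the difference between the classes was not tested.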

How the results depend on the processing

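No paired analysis was possible because there was 1 library per genotype, and for the same reason no replicate could be left out. Over 630 recomputed ratios of the members, 546 stayed within the interval of the reported ratio and 75 moved out of it, some of these with a change of sign where the reported interval held 0. The other 9 changed sign where the reported interval had left out 0. *Rax* in RPE-like cells became 0.15 among cells of at most 20000 UMIs and 0.068 as a mean of log values per cell, and *Otx2* there became 0.083 at a mitochondrial limit of 5%. *Otx1* in retinal progenitor-like cells became 0.088 at 20000 UMIs and 0.34 in female embryos. With at most 2000 UMIs per cell *Lhx2* in RPE-like cells became 0.66, *Six3* in retinal progenitor-like cells -0.046, *Six6* in neurogenic precursor-like cells 0.29 and *Six6* in amacrine or horizontal precursor-like cells -0.10, all on few UMIs. The number of members called in RPE-like cells, 1, became 0 at both UMI limits and without the cell with the most UMIs of the gene, and 3 at the 5% mitochondrial limit (*Rax* at -1.76 and *Six6* at -1.11 lower, *Six3* at 0.57 higher). In neurogenic precursor-like cells it went from 1 to 0 at 2000 UMIs and in male embryos. In ganglion cell-like cells it went from 0 to 1 (*Lhx2*) without doublet removal, at resolution 1.6, by a rule per cell and with cells under 5000 UMIs left out, the last being chosen after seeing the data. In amacrine or horizontal precursor-like cells it went from 0 to 1 without integration and at resolution 1.6 (*Otx2*) and by the rule per cell (*Lhx2*). In retinal progenitor-like cells it went from 0 to 1 in female embryos (*Otx2*) and to 2 in male embryos (*Otx2* and *Otx1*). The cause of these changes was not tested. Resolution 0.4 gave no amacrine or horizontal precursor-like class. *Pax6* in RPE-like cells ran from -0.35 to -0.06 over its 19 settings and *Otx1* from -1.08 to -0.15. Leaving out barcodes shared by the libraries, also chosen after seeing the data, kept all 35 ratios within their intervals, and taking off the level of red blood cell-like cells kept 34. The ratio that moved was that of *Rax* in RPE-like cells, to -1.78, the low end of its settings. Shares of cells moved with the depth of thinning in 157 of 210 values. Low depth in RPE-like cells limits what can be seen of *Rax* and *Otx1*.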
